A study of Saccharomyces cerevisiae with 24 samples.

Results

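The comparison described here is that of *snf1*∆ (JS1394) with WT (JS1256) haploid budding yeast in log phase, when glucose is still present. It takes in the 3 *snf1*∆ libraries and the 3 WT libraries that the sample labels place at the first time point, 6 of the 24 poly(A) RNA-seq libraries of the series, taken by strain and time as the labels give them. Both strains are *MATa* and carry the *his3*∆1, *leu2*∆0, *met15*∆0 and *ura3*∆0 alleles, and JS1394 has in addition the whole *SNF1* ORF replaced by *kanMX4*. Each strain is a single haploid isolate, so that the deletion and any other difference between these isolates cannot be told apart. The labels give 5 hr of growth at 30°C in YPD with 2% glucose, whereas the methods of the study describe a later log phase time and a synthetic medium, also with glucose. The same pair of strains at 24 hr, with 3 libraries each, is used below to test how the effect of the deletion differs once glucose is used up. The rest of the series holds both strains at 48 hr and a *snf1*∆ suppressor strain (JS1416), which has 1 library at log. By the study's account JS1416 also carries a missense mutation in *CYC8*.

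Snf1 is the catalytic subunit of the yeast AMP-activated protein kinase and acts with the activating subunit Snf4 and 1 of the scaffolds Sip1, Sip2 and Gal83. When glucose is low it is phosphorylated by Sak1, Tos3 or Elm1, and the Reg1-Glc7 phosphatase turns it off when glucose is plentiful. Active Snf1 releases genes for other carbon sources from the repressor Mig1, which works with Cyc8-Tup1, and turns on the activators Cat8, Sip4 and Adr1. It also phosphorylates acetyl-CoA carboxylase, the first enzyme of fatty acid synthesis, and is known to be needed for growth without inositol. Log phase in glucose is thus the condition in which the kinase is held at low activity, and the comparison asks which transcripts differ without it there.

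The 6 libraries held between 8695170 and 28133662 counts on ORFs, with *snf1*∆ replicate 2 the deepest, and at least 6639 of the 6692 ORFs of the table had a count in each. Expression is given below as CPM, the counts of a gene scaled to a common library total over the 6440 genes tested, with trimmed-mean (TMM) scaling factors. Every value is thus relative to the other RNA measured. In bulk RNA, fewer cells with a transcript and less of it per cell cannot be told apart. The deleted gene was looked at first. *SNF1* (chrIV:1412373-1414274 in R64) had 687, 958 and 775 counts in the WT libraries and 5, 7 and 2 counts in the *snf1*∆ libraries, 81, 76.7 and 84.2 CPM against 0.515, 0.24 and 0.229 CPM. The summed *snf1*∆ level was 0.367% of the WT level, with an exact 95% interval of 0.2% to 0.616% that covers counting error only. Both strains are *MATa* by genotype. Among the *a*-specific genes, *STE2*, the α-factor receptor, had 1341, 1212 and 1196 CPM in WT and 1273, 1324 and 1268 CPM in *snf1*∆. The α-specific *MF(ALPHA)1* lay between 0.802 and 2.59 CPM in all 6 libraries. The 4 α-specific genes together had 58.11, 49.39 and 52.38 CPM in WT and 66.85, 65.68 and 68.2 CPM in *snf1*∆. Of these 4 genes 2 were called higher, against 9.61% of all genes. Next to the deleted locus, *SNM1* (an RNase MRP subunit) was higher in *snf1*∆ with a log2 fold change of 1.58 ± 0.132 (SE), and *JIP4* and *PEX29*, 2 of the other 3 nearest genes, were higher by 0.50 and 0.43. In all, 3 of the 4 nearest genes were called higher, against the same 9.61%. Whether the marker cassette moves these neighbours was not tested.

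Of 6440 genes tested with edgeR's quasi-likelihood test, 1052 (16.3%) differed between the strains at an adjusted p under 0.05, with 619 (9.61%) higher and 433 (6.72%) lower in *snf1*∆. The changes were mostly small. The median absolute log2 fold change of the called genes was 0.45, and 116 genes (1.8% of those tested) were called and changed at least 2-fold, of which 97 (1.51%) were higher and 19 (0.295%) were lower. For 2209 genes (34.3%) the 3 values of one strain did not overlap those of the other. Same-numbered WT and *snf1*∆ libraries deviated together from their strain means, and with the replicate number as a block 2240 genes (34.8%) were called, 1136 higher and 1104 lower, including all 1052. With upper-quartile scaling 508 genes were higher and 644 lower, so that the share of higher calls was 44.1% instead of 58.8%. The number of calls was 695, 692 and 664 without WT replicate 2, WT replicate 3 and *snf1*∆ replicate 3, and the number of lower calls was 257 without *snf1*∆ replicate 1. In a model over all 24 libraries 140 genes were called, 112 higher and 28 lower. A model over the 15 libraries at log and 24 hr, which leaves out the last time point, kept 790 of the 1052 calls. These models differ both in time points and in the number of libraries, and why calls were lost in the model over 24 libraries was not tested.

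Genes named here come from the 15 furthest changes in each direction, out of the called genes whose log2 CPM averaged 3 or more and whose libraries kept the strains apart. *YOR387C* and *VEL1*, a pair of genes of unknown function, rose furthest. *YOR387C* had 7.19, 6.96 and 12.5 CPM in WT and 108, 139 and 192 CPM in *snf1*∆, and *VEL1* had 11.9, 13.4 and 16.7 CPM and 131, 173 and 214 CPM. All *snf1*∆ libraries were far above all WT libraries for both genes, with log2 fold changes of 4.05 ± 0.246 (adjusted p = 6.33e-07) and 3.62 ± 0.185 (adjusted p = 2.27e-07). *FIG1*, a membrane protein of mating cells, came next, with 3.42, 3.12 and 2.5 CPM in WT and 14, 20.9 and 15.7 CPM in *snf1*∆ (2.52 ± 0.198). *ATG41*, an autophagy gene, followed at 9.67, 9.53 and 8.48 CPM against 47.8, 48.8 and 49.4 CPM, a log2 fold change of 2.4 ± 0.0987. Other genes of the 15 that rose furthest were *DUR12* (urea amidolyase), *ADH4* (an alcohol dehydrogenase that zinc controls), *STR3* (cystathionine beta-lyase), *PCL5* (the cyclin that promotes turnover of Gcn4), *RDS1*, *ARG7*, *RTC2*, *PRM7*, *BSC1* and *ARO5*, with log2 fold changes from 1.75 to 2.01. *PRM7* and *BSC1* rose alike, at 1.78 and 1.78, and lie next to each other on chromosome IV. Of the genes that rose, *ADH4* and *STR3* were not called in the model over 24 libraries (adjusted p = 0.332 and 0.0654).

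The 15 that fell furthest began with the uncharacterized *YKR075W-A*, *PHO84* and *INO1*. *YKR075W-A* went from 19.7, 17.5 and 18.3 CPM in WT to 5.25, 4.32 and 2.98 CPM in *snf1*∆, and *YKR075C* from 55.3, 48.8 and 50.1 CPM to 16.2, 15.6 and 14.6 CPM, which gave log2 fold changes of -2.12 ± 0.162 and -1.73 ± 0.0958. Their systematic names place them side by side on opposite strands of chromosome XI, and without strand in the counting their reads could not be told apart where they overlap. *MPC3*, the pyruvate carrier subunit used in respiring cells, had 16.7, 12.9 and 14.8 CPM in WT and 8.34, 4.97 and 5.16 CPM in *snf1*∆. The remaining 10 were *PHO12*, *PHO11*, *PHO5*, *YEL073C*, *FET3*, *ADR1*, *KNH1*, *CIN5*, *HXT2* and *HXT7*, with log2 fold changes from -1.74 to -1.07. Of the genes that fell, *MPC3*, *FET3*, *ADR1*, *KNH1*, *CIN5* and *HXT2* were not called in the model over 24 libraries (adjusted p = 0.524, 0.0508, 0.491, 0.112, 0.391 and 0.753).

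**Figure D1:**
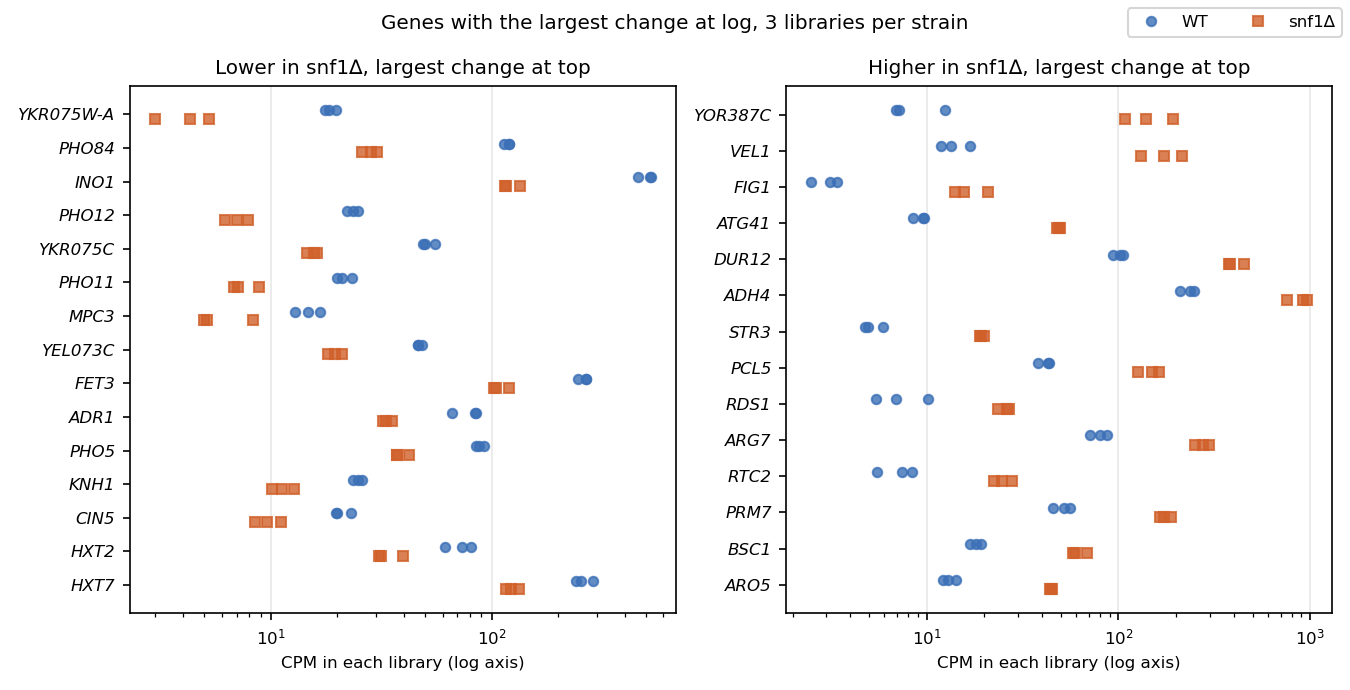
CPM of 15 genes that fell furthest (left) and 14 that rose furthest (right) in *snf1*∆ at log, on log axes, with 1 point per library (circles for WT, squares for *snf1*∆). The *snf1*∆ points of *YOR387C* run from 108 to 192 CPM against 6.96 to 12.5 CPM in WT, and the *SNF1* gene itself is not plotted.

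Glucose-repressed genes were then examined by role. *SUC2* encodes invertase, the enzyme that splits sucrose, and is the classic gene that needs Snf1 for derepression. It had 62.1, 63.6 and 65.2 CPM in WT and 61.7, 61 and 63.8 CPM in *snf1*∆ at log, ranges that overlapped, with a log2 fold change of -0.03 ± 0.0809 (adjusted p = 0.813). The maltose permease genes *MAL31* and *MAL11* did fall. *MAL31* had 39.2, 38.4 and 43.3 CPM in WT and 21.3, 21.7 and 20.2 CPM in *snf1*∆ (log2 fold change -0.93 ± 0.0918, adjusted p = 3.21e-05), and *MAL11* had 21, 19 and 24.8 CPM and 12.3, 12 and 10.9 CPM (-0.87 ± 0.126, adjusted p = 0.000713). Of the 14 sucrose and maltose genes tested, these 2 were lower and *MPH2* was higher (0.41, a call lost in 5 of the 6 fits that left out 1 library), though 95.8% of the 75-base windows of *MPH2* occur elsewhere in the genome. Over all genes 6.72% were lower and 9.61% higher. The list median was -0.05 against 0.00 over all genes. In the model over 24 libraries no gene of the list was called (adjusted p = 0.257 for *MAL31* and 0.273 for *MAL11*). None of the 8 galactose genes was called in the test without the block. With the block 1 of them, the regulator *GAL4*, was higher, against 17.6% of all genes.

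Among 21 hexose transporter and sensor genes, 4 transporters that cells use at low or moderate glucose fell, of which *HXT6* and *HXT7* are near-identical. In the list 2 genes were higher and 4 lower, against 9.61% and 6.72% of all genes. *HXT2*, a high-affinity transporter, had 80.4, 73.2 and 61.4 CPM in WT and 39.7, 31.6 and 30.8 CPM in *snf1*∆, a log2 fold change of -1.08 ± 0.125 (adjusted p = 0.00012). *HXT4* fell by a like amount, from 134, 99.2 and 154 CPM to 75.2, 70.6 and 73.5 CPM (-0.82 ± 0.135, adjusted p = 0.00161). The near-identical *HXT6* and *HXT7* had 218, 223 and 249 CPM and 242, 255 and 287 CPM in WT and 121, 127 and 108 CPM and 116, 133 and 123 CPM in *snf1*∆, with log2 fold changes of -0.95 and -1.07. For each of this pair 95.0% of all 75-base windows occur elsewhere in the genome, so their counts cannot be assigned to one of them. Their 2 lower calls are thus 1 measurement. *HXT1*, the low-affinity transporter of high glucose, was slightly higher in *snf1*∆, at 560.3, 490.0 and 452 CPM against 635, 609.5 and 613 CPM (0.31 ± 0.0867, adjusted p = 0.033), and so was *HXT11* (0.39 ± 0.112). Neither *HXT1* nor *HXT11* was called without WT replicate 2, WT replicate 3, *snf1*∆ replicate 1 or *snf1*∆ replicate 3 (adjusted p = 0.0985, 0.141, 0.0993 and 0.081 for *HXT1*), and 1 of them was called without WT replicate 1. For *HXT11* 55.7% of 75-base windows occur elsewhere. In the model over 24 libraries 2 genes of the list, the pair *HXT6* and *HXT7*, were lower and 0 higher. The calls of *HXT2* and *HXT4* were lost there (adjusted p = 0.753 and 0.426). The glucose sensor genes *SNF3* and *RGT2* were not called, with log2 fold changes of -0.09 and 0.23. With the block, *RGT2* and *MTH1*, a corepressor of hexose transporter genes, were also called higher and *HXT3* lower. That made 4 higher and 5 lower in all, against 17.6% and 17.1% of all genes with the block.

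Few activators and repressors of the glucose response were called. Of 9 activators 1 was higher and 1 lower, and of 8 glucose repressors 1 was higher and 1 lower. These shares were near the 9.61% higher and 6.72% lower of all genes. *ADR1*, which encodes the activator of *ADH2* and of peroxisomal genes, had 85.1, 66 and 84 CPM in WT and 35.4, 33.3 and 32.1 CPM in *snf1*∆, and the strains did not overlap. The log2 fold change was -1.22 ± 0.111 (adjusted p = 1.65e-05), a 2.33-fold higher level in WT. The call was lost in the model over 24 libraries (adjusted p = 0.491), as were those of *MIG2* and *HXK2* below. *SIP4*, an activator of gluconeogenic genes, went the other way at a low level, from 2.95, 1.76 and 2.5 CPM to 5.25, 5.31 and 4.36 CPM (1.11 ± 0.21, adjusted p = 0.00397). *CAT8* had 14.5, 14.7 and 15.1 CPM in WT and 16.3, 13.8 and 17.4 CPM in *snf1*∆, with a log2 fold change of 0.08 ± 0.121 (adjusted p = 0.71). *MIG1* was not called either (-0.07 ± 0.132, adjusted p = 0.755), and its partner *MIG2* was lower (-0.47 ± 0.147, adjusted p = 0.0486). *HXK2*, the hexokinase with a part in glucose repression, was higher by 0.25, and the calls of *MIG2* and *HXK2* were each lost in several of the fits that left out 1 library (the adjusted p reached 0.161 without WT replicate 1 for *MIG2* and 0.137 without WT replicate 3 for *HXK2*). Within the kinase complex, *TOS3*, an upstream kinase, rose from 43.4, 44.9 and 48 CPM to 89.7, 65.7 and 68.1 CPM (0.71 ± 0.121, adjusted p = 0.00206), and *SNF4* fell from 103, 95.9 and 99.9 CPM to 82.4, 78.5 and 66.6 CPM (-0.39 ± 0.095, adjusted p = 0.0157). The call of *SNF4* was lost without WT replicate 3 (adjusted p = 0.0571) or *snf1*∆ replicate 3 (0.0809). The other 7 members of that list were not called, where 16.3% of all genes were.

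The pathways that these activators serve showed little difference at log. None of the 14 genes of the glyoxylate cycle, gluconeogenesis and use of ethanol, acetate and lactate was called, and their log2 fold changes ran from -0.33 for *FBP1* to 0.27 for *PCK1*. With the block, *CIT2* and *ADH2* were called higher. *ADH2*, the alcohol dehydrogenase of ethanol use, had 1290.3, 1063 and 1048 CPM in WT and 1399, 1242 and 1110.0 CPM in *snf1*∆, which overlapped. In the TCA cycle list 1 of 15 genes was called (*LPD1*, higher by 0.24), in the respiratory chain and ATP synthase list 1 of 36 (*COX4*, which fell by 0.31) and in the fatty acid oxidation list 2 of 17 (*PIP2* and *TES1*, higher by 0.66 and 0.31). The medians of these 3 lists were 0.09, -0.11 and 0.16. Over all genes 16.3% were called, 9.61% higher and 6.72% lower, and the share in fatty acid oxidation was near that 9.61%. These few calls came and went with single libraries. The TCA count was 0 without WT replicate 2, WT replicate 3, *snf1*∆ replicate 1 or *snf1*∆ replicate 3, the respiratory count was 0 without any 1 WT replicate or *snf1*∆ replicate 3, both were 2 without *snf1*∆ replicate 2, and the fatty acid oxidation count was 1 without any library but *snf1*∆ replicate 2. The block raised these counts to 5 higher in the TCA cycle, 2 higher and 7 lower in the respiratory chain, and 4 higher in fatty acid oxidation. Over all genes the block called 17.6% higher and 17.1% lower.

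Genes of amino acid synthesis formed the broadest rise. Of 35 genes under Gcn4, the bZIP activator of amino acid synthesis, 30 were higher in *snf1*∆ and none was lower, and the list median was 0.81 against 0.00 over all genes and a background of 9.61% higher calls. The libraries of the 2 strains did not overlap for 33 of the 35, all higher in *snf1*∆, against 18.5% of all genes. Arginine genes led the list. *ARG1*, argininosuccinate synthetase, had 114, 118 and 98.8 CPM in WT and 362, 382 and 360.1 CPM in *snf1*∆, and *ARG3*, ornithine carbamoyltransferase, had 4.6, 3.12 and 2.72 CPM and 11.1, 9.28 and 8.83 CPM. Their log2 fold changes were 1.74 ± 0.0856 (adjusted p = 1.7e-07) and 1.5 ± 0.191 (adjusted p = 0.000258), and the strains were far apart in both. *ARG56*, which encodes the acetylglutamate kinase and reductase of the same pathway, had 55.2, 45.1 and 46.5 CPM and 126, 132 and 119.8 CPM. *ARG7*, which is outside the list and makes ornithine, had 87.5, 80.5 and 71 CPM and 297, 275 and 251 CPM.

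Histidine, lysine, asparagine and threonine genes rose as well. *HIS4* had 269, 294 and 272 CPM in WT and 669.6, 690.0 and 683 CPM in *snf1*∆ (1.29 ± 0.0734), and *ASN1*, asparagine synthetase, had 439, 397 and 451 CPM and 1032, 916 and 1041 CPM (1.22 ± 0.0837). *LYS1*, saccharopine dehydrogenase, had 61.4, 61.3 and 57.5 CPM and 143, 121 and 130.2 CPM (1.13 ± 0.0906). The smallest called rises of the list were those of *LYS9* (0.31) and *THR1* (0.39). *GCN4* itself had 944, 1003 and 898 CPM in WT and 1026, 1147 and 1031 CPM in *snf1*∆, without overlap but with a log2 fold change of only 0.17 ± 0.0785 (adjusted p = 0.168, and 0.011 with the block). The other 4 members without a call were *ARG8*, *LEU9*, *ILV5* and *GDH1*. *HIS3* carries the *his3*∆1 allele in both strains, and its remaining reads rose from 37.5, 38.2 and 37.4 CPM to 80.5, 77.9 and 84.8 CPM (1.1 ± 0.0841). The number of list members called was 28 to 30 with any 1 library left out and 12 in the model over 24 libraries, where *HIS4* and *HIS3* were not called (adjusted p = 0.106 and 0.137).

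Gcn4 binds TGACTC, and the sites below are shown because they lie before the 4 list members with the largest rise among those that have this hexamer within 250 bases of the start codon. Each is written 5′ to 3′ on the strand that reads TGACTC, with the hexamer in capitals, from the RefSeq sequence of R64.
ARG56: ggtggtaattgaTGACTCttctattttttt
HIS4: acccatgcacagTGACTCacgtttttttat
ASN1: tcatgtaacattTGACTCattctgtaaact
LYS1: aggatgactttaTGACTCtttgtcgctgaa
The windows are chrV:295221-295250 on the plus strand (171 bases between the hexamer and the start codon), chrIII:68515-68544 on the minus strand (193 bases), chrXVI:822381-822410 on the plus strand (221 bases) and chrIX:420853-420882 on the plus strand (128 bases), all upstream of the coding sequence. *HIS4*, *ARG56* and *LYS1* each have 2 such hexamers in the 250 bases and *ASN1* has 1. Counted on both strands, TGACTC was present before 19 of 35 (54.3%) of the list and 369 of 5832 (6.33%) of all tested genes with a sequence. It was present before 25 of 89 (28.1%) of the genes called at least 2-fold higher and 18 of 401 (4.49%) of all genes called lower. These are counts of letters, not measured binding. *ARG1* and *ARG3* do not have these letters in the window.

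Sulfate assimilation and methionine synthesis rose in the same libraries. Of 21 genes 15 were higher and 1 was lower, against 9.61% and 6.72% of all genes, with a median of 0.60. In the model over 24 libraries 6 were higher and 0 lower, and the calls of *STR3* and *SAM2* were lost (adjusted p = 0.0654 and 0.177). The genes that reduce sulfate to sulfide were each raised by a like amount. *MET3*, ATP sulfurylase, had 45.1, 33.1 and 39.7 CPM in WT and 112, 106 and 112 CPM in *snf1*∆ (1.49 ± 0.112). *MET14*, the kinase that follows, had 16.5, 21.4 and 16.8 CPM and 49.1, 55.1 and 55.7 CPM (1.54 ± 0.115), and *MET16*, the reductase after it, had 11.4, 18.8 and 14.9 CPM and 33, 47.7 and 41 CPM (1.42 ± 0.173). The sulfite reductase subunit genes *MET5* and *MET10* had 72.4, 61.7 and 64.6 CPM and 70.1, 54.5 and 56.3 CPM in WT, and 182, 188 and 192 CPM and 168, 175 and 166 CPM in *snf1*∆. Their log2 fold changes of 1.5 ± 0.0852 and 1.49 ± 0.102 differed by less than 1 SE, and no WT library reached a *snf1*∆ library in any of these 5 genes. The sulfate permease gene *SUL2* rose from 20.9, 16.7 and 17.1 CPM to 43.4, 37.9 and 39.9 CPM (1.15 ± 0.11), while *SUL1* rose by 0.32. *STR3*, which takes cysteine towards homocysteine, had the largest change of the list, with 4.95, 5.92 and 4.78 CPM in WT and 19, 19.1 and 19.8 CPM in *snf1*∆ (1.87 ± 0.129, adjusted p = 1.75e-06). *SAM2*, an S-adenosylmethionine synthetase gene, was the exception and fell from 1319.9, 1085 and 1153 CPM to 855, 785 and 767 CPM (-0.56 ± 0.088), and *SAM1*, its paralog, was not called (0.22, adjusted p = 0.126). Both strains lack the homocysteine synthase gene *MET15* (*MET17*), so this list was read in methionine auxotrophs.

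CACGTG is the core bound by Cbf1, which with Met28 and Met4 activates sulfur genes, and also by Pho4, the activator of phosphate genes. The windows below are shown because one list rose and the other fell. They hold the site nearest the start codon in the 3 sulfur genes with the largest rise and the phosphate gene with the largest fall that have the letters in the 250 bases, capitals marking the hexamer.
MET14: tgccactaatttCACGTGatcaatatattt
MET28: gggtactgagtgCACGTGacttattttttt
MET10: agcttatagaagCACGTGaccacaattcac
SPL2: agtcactgcagcCACGTGcctagatctatt
They lie at chrXI:439596-439625 on the minus strand, chrIX:384321-384350 on the minus strand, chrVI:213069-213098 on the plus strand and chrVIII:375114-375143 on the minus strand, at 222, 213, 225 and 25 bases from the start codons. The hexamer reads the same on both strands. CACGTG was present before 7 of 21 (33.3%) of the sulfur list, 3 of 12 (25%) of the phosphate list and 160 of 5832 (2.74%) of all genes. Of the phosphate genes called lower, only *SPL2* had the letters where a 30-base window fits in the 250 bases. *MET28*, the Cbf1 cofactor, had 3.42, 4.72 and 3.59 CPM in WT and 10.7, 12 and 11.5 CPM in *snf1*∆ (1.52 ± 0.156).

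Phosphate genes fell. The list of genes that yeast turns on when phosphate is short had 12 members tested, of which 7 were lower and 1 was higher in *snf1*∆, against 6.72% and 9.61% of all genes, and its median was -0.80. In the model over 24 libraries 5 were lower and 1 higher. *PHO84* (chrXIII:24037-25800), the high-affinity phosphate transporter, had 119.9, 114 and 120.2 CPM in WT and 30.3, 28.4 and 26 CPM in *snf1*∆. All *snf1*∆ libraries were far below all WT libraries, with a log2 fold change of -2.06 ± 0.091 (adjusted p = 8.44e-08). *PHO5*, the secreted acid phosphatase, went from 92.4, 85.4 and 87.4 CPM to 37.4, 37.2 and 42.4 CPM (-1.18 ± 0.0903, adjusted p = 3.62e-06). The related *PHO11* and *PHO12* had 23.2, 20 and 21.1 CPM and 23.7, 22.3 and 24.9 CPM in WT against 7.11, 6.82 and 8.83 CPM and 6.18, 7.06 and 7.91 CPM in *snf1*∆, but 82.4% and 81.3% of their 75-base windows occur elsewhere in the genome, so they are one measurement. With the pair taken once, a choice made after seeing the data, 6 of 11 members were lower and the list median was -0.42. *SPL2*, an inhibitor of low-affinity phosphate uptake, had 4.48, 4.32 and 5.22 CPM and 1.03, 1.13 and 0.458 CPM (-2.25 ± 0.254). *PHO89*, the sodium-dependent transporter, was also low in count, at 2.12, 2.88 and 7.17 CPM against 1.44, 0.994 and 1.15 CPM. *PHM8*, which releases phosphate from nucleotides, was the one member that rose, from 54.1, 56.1 and 62.6 CPM to 103, 105 and 106 CPM (0.86 ± 0.087, adjusted p = 3.75e-05). *VTC3* of the polyphosphate polymerase fell by 0.42, and *VTC1* and *VTC4* were called lower with the block only (-0.24 and -0.28). When at least 10 counts in every library were asked for, the list median was -0.42, since *SPL2* was then not tested.

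**Figure D2:**
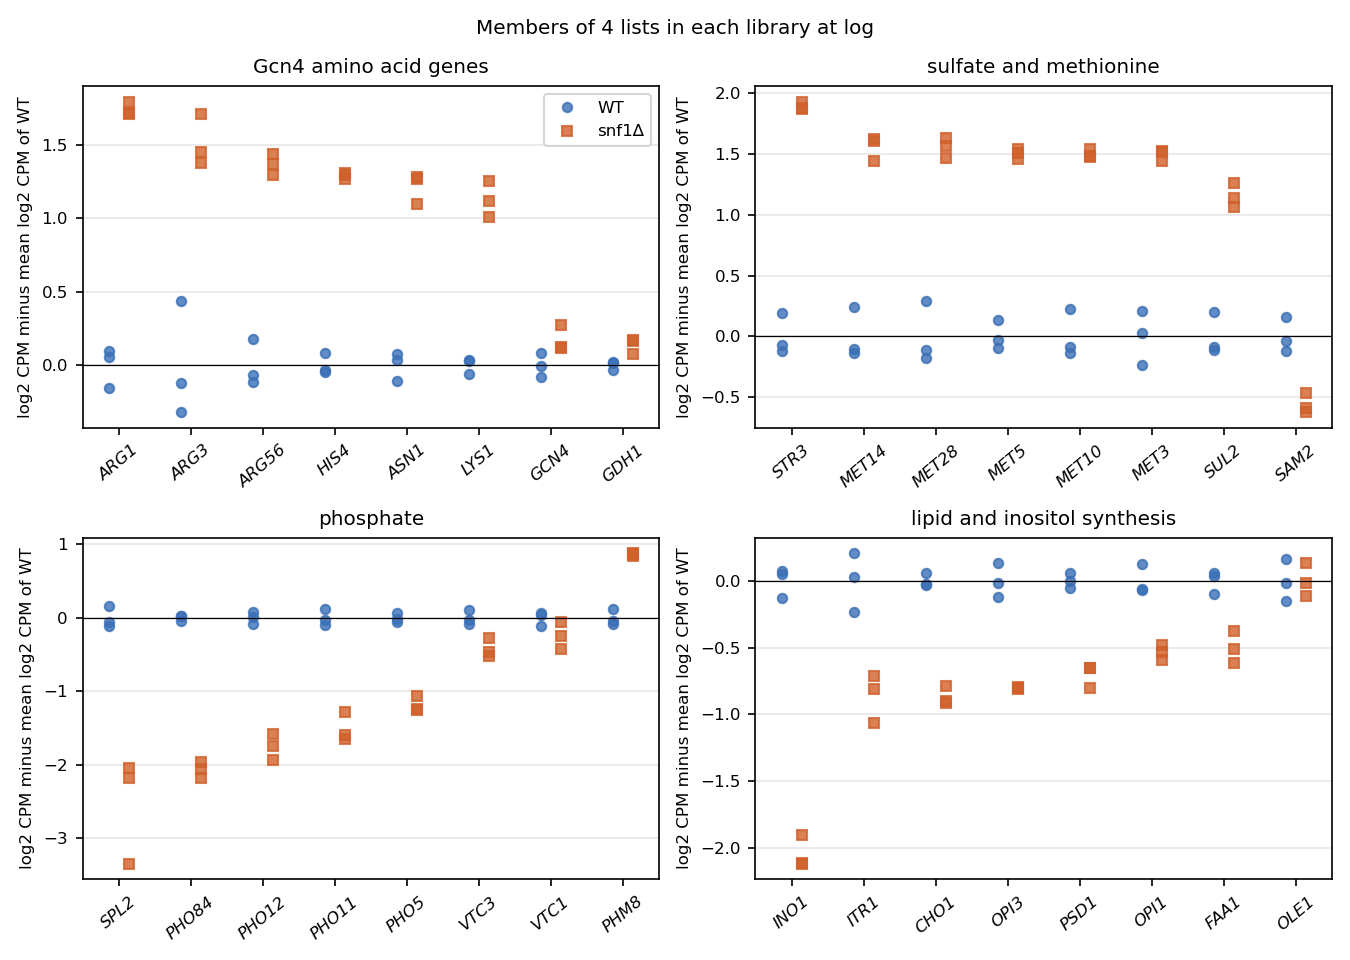
Members of the amino acid, sulfur, phosphate and lipid lists in each library at log, as log2 CPM minus the mean log2 CPM of the 3 WT libraries (circles for WT, squares for *snf1*∆), 8 genes per list, picked to show large changes as well as members with little or none. The *snf1*∆ points of *PHO84* and *INO1* lie about 2 log2 units below WT, and those of *OLE1* lie among the WT points.

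Inositol and phospholipid genes fell too. Of 14 genes 8 were lower and none was higher, with a median of -0.51 against a background of 6.72% lower calls. The strains did not overlap for 12 of the 14, all lower in *snf1*∆, against 15.8% of all genes. *INO1* (chrX:134332-135933), inositol 3-phosphate synthase, the step that makes inositol, had 526, 459 and 519.7 CPM in WT and 134, 115 and 116 CPM in *snf1*∆. That is 4.12-fold more in WT, a log2 fold change of -2.04 ± 0.0908 (adjusted p = 8.44e-08). *ITR1*, the inositol transporter, had 4019, 2957 and 3547 CPM and 2122, 1667 and 1985 CPM (-0.87 ± 0.117). Along the path from CDP-diacylglycerol to phosphatidylcholine, *CHO1* (phosphatidylserine synthase) had 984, 921 and 927 CPM and 547, 505 and 502 CPM (-0.87 ± 0.0739), *PSD1* (phosphatidylserine decarboxylase) changed by -0.70 ± 0.0765, and *OPI3* (the last methyltransferase) had 2218, 2461 and 2064 CPM and 1295, 1283 and 1281 CPM (-0.81 ± 0.0797). *CHO2*, the first methyltransferase, was not called (-0.15 ± 0.0703, adjusted p = 0.188). The regulators moved less. *OPI1*, the repressor of these genes, fell by 0.54, *INO4*, one of the paired activators, fell by 0.51, and *INO2*, the other, was not called (-0.11, adjusted p = 0.511).

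In the fatty acid branch *FAA1*, an acyl-CoA synthetase gene, was the one member called, at -0.50. *ACC1*, acetyl-CoA carboxylase, had 1023, 886 and 972 CPM in WT and 864, 704 and 814 CPM in *snf1*∆ (-0.27 ± 0.0915, adjusted p = 0.0625), and *FAS1* and *FAS2* changed by -0.25 and -0.27 (adjusted p = 0.0535 and 0.0626). These 3 did not overlap between strains, and they and *CHO2* were called lower with the block. The block raised the list from 8 to 12 lower calls, against 17.1% of all genes. In the model over 24 libraries 4 were lower, without *CHO1* and *OPI1* (adjusted p = 0.118 and 0.194). *OLE1*, the fatty acid desaturase, had 722, 636 and 580.1 CPM and 707, 636 and 593 CPM, a log2 fold change of 0.00 ± 0.0965. CATGTG, the core bound by Ino2-Ino4, is shown before the 3 genes with the largest fall, with the hexamer in capitals.
INO1: ctttctctgctcCATGTGaattaaataagt
ITR1: ccttccccaccgCATGTGaaaaaagctcga
CHO1: tttagatgggtcCATGTGaaagctcaaagg
These windows lie at chrX:136094-136123 on the plus strand, chrIV:1445671-1445700 on the minus strand and chrV:208616-208645 on the plus strand, 172, 215 and 153 bases before the start codons. CATGTG was present on either strand before 8 of 14 (57.1%) of the list, 316 of 5832 (5.42%) of all genes, 41 of 401 (10.2%) of the genes called lower and 31 of 588 (5.27%) of those called higher.

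Metal genes split within their lists. *FET3*, the multicopper ferroxidase, and *FTR1*, the iron permease it works with, fell together. *FET3* had 269, 247 and 267 CPM in WT and 121, 102 and 105 CPM in *snf1*∆ (-1.26 ± 0.0862, adjusted p = 1.75e-06), and *FTR1* had 166, 139 and 128 CPM and 84.5, 78.1 and 75.9 CPM (-0.86 ± 0.103, adjusted p = 0.000145). The siderophore transporter gene *SIT1* fell by 0.76, and *ARN2* and *FIT3* of the same 15-gene list were higher by 0.32 and 0.31, and neither was called without WT replicate 2, WT replicate 3, *snf1*∆ replicate 1 or *snf1*∆ replicate 3, with 1 of them called without *snf1*∆ replicate 2. In all 2 iron genes were higher and 3 lower, against 9.61% and 6.72% of all genes, and the list median was 0.01. With the block 4 members were higher and 5 lower, against 17.6% and 17.1% of all genes. Among 7 zinc genes, *ADH4* and *ZPS1* rose. *ADH4* had 209, 236 and 248 CPM in WT and 753, 922 and 964 CPM in *snf1*∆ (1.93 ± 0.106, adjusted p = 3.22e-07), and *ZPS1*, a cell wall protein of zinc-poor cells, had 287, 341 and 328 CPM and 629.7, 803 and 862 CPM (1.26 ± 0.115, adjusted p = 1.65e-05). The zinc transporter genes *ZRT1* and *ZRT2*, which the activator Zap1 also controls, fell. *ZRT1* had 1956, 1905 and 1770.1 CPM and 1322, 1279.7 and 1307 CPM (-0.53 ± 0.0716), and *ZRT2* fell by 0.47. *IZH1* fell by 0.36, and *ZAP1* and *ZRT3* were not called. In the model over 24 libraries no iron gene and 1 zinc gene, higher, was called, with adjusted p of 0.0508 for *FET3*, 0.622 for *FTR1*, 0.332 for *ADH4* and 0.611 for *ZRT1*.

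Ribosomal protein genes were lower as a body, each by a small amount. Of 137 genes 117 were lower and none was higher, against 6.72% and 9.61% of all genes, and the median was -0.37. Their summed level was 173354, 186274 and 178212 CPM in the WT libraries and 134906, 140225 and 143598 CPM in the *snf1*∆ libraries, so that every *snf1*∆ library was below every WT library. The furthest fall was that of *RPS21A*, from 878, 1022 and 876 CPM to 563, 682 and 599 CPM (-0.59 ± 0.0937, adjusted p = 0.00134). *RPL8A* had 776, 871 and 849 CPM and 531, 574 and 603 CPM (-0.55 ± 0.0799). *RPS9A* had the highest log2 fold change of the list and was not called without the block, at 144, 169 and 159.6 CPM and 144, 199 and 194 CPM (0.18 ± 0.117, adjusted p = 0.323). For 15 of the 137, of which 13 were called, over 20% of 75-base windows occur elsewhere in the genome. The count of lower calls was 83, 74 and 72 without WT replicate 2, WT replicate 3 and *snf1*∆ replicate 1, 134 with the block, and 0 in the model over 24 libraries. Ribosome assembly genes had a median of -0.20, with 7 of 40 lower and none higher. This count became 29 with the block, which called 17.1% of all genes lower. It ran from 1 without *snf1*∆ replicate 3 and 2 without WT replicate 2 to 14 without *snf1*∆ replicate 2, with 4 without WT replicate 3 and 4 without *snf1*∆ replicate 1.

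Stress, cell wall and mating genes were raised in part. Of 13 targets of Msn2 and Msn4, the activators of the general stress response, 6 were higher and none lower, against 9.61% and 6.72% of all genes, with a median of 0.38. *YGP1*, a secreted glycoprotein, had 920.2, 996 and 1014 CPM in WT and 1831, 1627 and 1763 CPM in *snf1*∆ (0.83 ± 0.0775), and *HSP26*, a small heat shock protein, had 10.3, 17.8 and 13.1 CPM and 28.5, 33.5 and 27.1 CPM (1.1 ± 0.168). *SPI1*, a cell wall protein, had 60.8, 64.3 and 101 CPM and 241, 133 and 162 CPM (1.25 ± 0.22, adjusted p = 0.0025). *HSP12*, one of the most used stress markers, did not follow, with 42.5, 35.7 and 76.2 CPM and 41.3, 32.1 and 50 CPM (-0.34 ± 0.243, adjusted p = 0.393). In this list the libraries of each strain were uneven. WT replicate 3 and *snf1*∆ replicate 1 were the highest of their strain in *SPI1* and *HSP104*, and the summed level of the list was 1723, 1775 and 2118 CPM in WT and 3405, 2721 and 3009 CPM in *snf1*∆. The count of higher calls was 3 without WT replicate 1, WT replicate 2, *snf1*∆ replicate 1 or *snf1*∆ replicate 3, and 2 in the model over 24 libraries. *HSP30*, a plasma membrane stress protein, rose from 129, 162 and 242 CPM to 651, 380.5 and 402 CPM (1.42 ± 0.23, adjusted p = 0.00147), and its call and that of *SPI1* were lost with a robust fit (adjusted p = 0.0611 and 0.061).

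Among 12 flocculin and cell wall genes 5 were higher, against 9.61% of all genes. This count was 3 without WT replicate 2 or *snf1*∆ replicate 1, 2 without *snf1*∆ replicate 3 and 0 in the model over 24 libraries. *PIR3* was higher by 0.79 and *FLO1* by 0.45, and 43.8% of the 75-base windows of *FLO1* occur elsewhere in the genome. In trehalose and glycogen metabolism 2 of 17 genes were called, *NTH1* and *GDB1*, both higher, a share close to the 9.61% of all genes. With the block 6 were higher and 2 lower, against 17.6% and 17.1% of all genes. The number of higher calls was 0 without WT replicate 2 or *snf1*∆ replicate 3, 1 without WT replicate 1 or *snf1*∆ replicate 1, 4 without WT replicate 3 and 6 without *snf1*∆ replicate 2. Of 9 stationary phase genes tested, *HSP30*, *SNZ1* and *SNO1* were higher, against 9.61% of all genes. *SNZ1* and *SNO1*, which make vitamin B6, rose by 0.86 and 0.93. Of 12 meiosis genes only *SPO11* was called, and it was lower (-0.76), a share near the 6.72% of all genes. Of the 7 *a*-specific genes 3 were higher, against 9.61% of all genes. *MFA1*, a pheromone gene, had 401, 339 and 302 CPM and 634, 659 and 753 CPM (0.97 ± 0.108), and *AGA2*, an agglutinin subunit, had 123, 81.5 and 98.6 CPM and 259, 225 and 289 CPM (1.35 ± 0.139). *ASG7* was the other one, at 0.64. None of the 8 haploid-specific genes was called, and *SAG1* and *MF(ALPHA)2* of the 4 α-specific genes rose by 0.40 and 0.59, with 1 of these calls made in each fit without WT replicate 2, WT replicate 3 or any *snf1*∆ replicate. In *de novo* NAD synthesis, which turns tryptophan into NAD, 3 of 6 genes were higher, against 9.61% of all genes. *BNA1* had 67.7, 79.4 and 72.1 CPM in WT and 179.8, 184 and 196 CPM in *snf1*∆ (1.35 ± 0.086, adjusted p = 1.01e-06), *BNA2*, the first step, had 3.3, 4 and 3.91 CPM and 9.17, 7.47 and 7.11 CPM (1.06 ± 0.166), and *BNA6* was higher by 0.49. The other 3 enzymes, *BNA4*, *BNA5* and *BNA7*, had log2 fold changes of 0.09, 0.13 and 0.01.

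**Figure D3:**
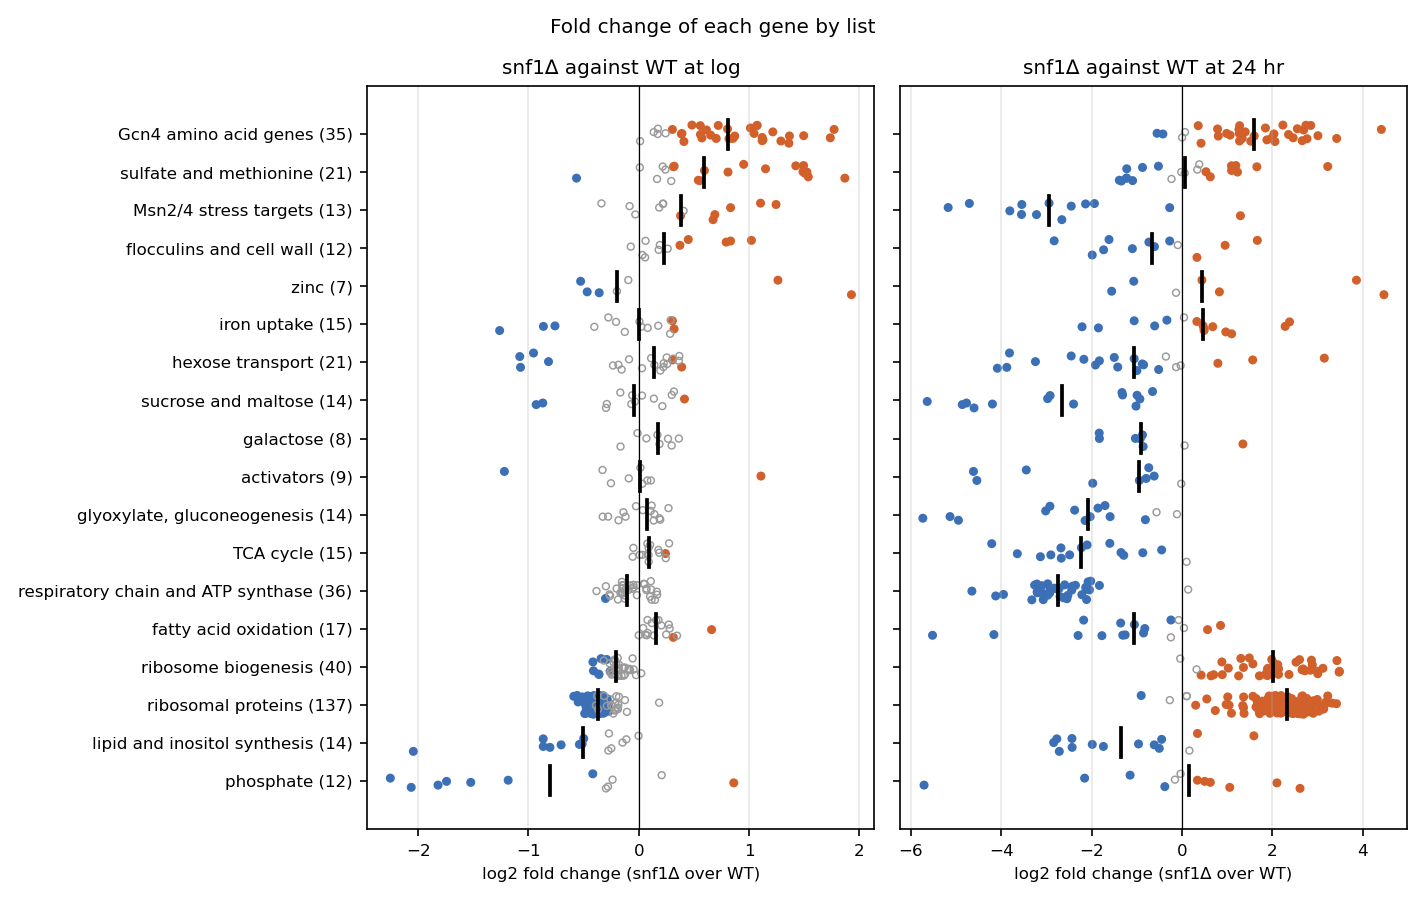
log2 fold change of *snf1*∆ over WT for each gene of 18 lists at log (left) and at 24 hr (right), with the number of genes tested in brackets. Filled points are called at an adjusted p under 0.05 (orange higher, blue lower), open points are not, and black bars are list medians, and the horizontal axes have different ranges. At log the ribosomal protein median is -0.37 and at 24 hr it is 2.33.

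The same strains at 24 hr give the effect of the deletion once glucose is exhausted, and the difference between the 2 effects was tested gene by gene over the 12 libraries. At 24 hr 4887 of 6528 genes (74.9%) were called, 39% higher and 35.9% lower in *snf1*∆, and the effect at 24 hr differed from that at log for 4478 genes (68.6%), with 34.5% of genes at a higher and 34.1% at a lower *snf1*∆ to WT ratio at 24 hr than at log. Of the 1052 genes called at log, 400 were called in the same direction at 24 hr, 484 in the opposite direction, and 810 had a called difference of effect. The libraries at 24 hr had totals of 3749146 to 9761488 counts and TMM factors from 0.694 to 0.998, where those at log ran from 0.976 to 1.04. These factors were set against a library at log and scale the CPM values, while the test over 12 libraries used its own.

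*SUC2* and *CAT8*, without a call at log, were lower in *snf1*∆ at 24 hr. *SUC2* had 2537, 2603 and 2415 CPM in WT and 57.1, 55.9 and 42.3 CPM in *snf1*∆ at 24 hr, a log2 fold change of -5.64 against -0.03 at log, and the difference was -5.61 ± 0.17 (adjusted p = 6.7e-14). *CAT8* had 502, 508 and 562 CPM and 23.1, 24.6 and 21.4 CPM (-4.54 against 0.08 at log, difference -4.62 ± 0.156). *ADR1* was low in *snf1*∆ at both times, with log2 fold changes of -1.22 at log and -4.62 at 24 hr, and the difference of -3.40 ± 0.209 passed the test. Of the 8 galactose genes 6 were lower and 1 was higher at 24 hr. The glyoxylate and gluconeogenesis list had 12 of 14 genes lower and none higher at 24 hr with a median of -2.09, and the respiratory list 35 of 36 lower with a median of -2.75.

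The ribosomal protein genes reversed. At 24 hr 133 of 137 were higher in *snf1*∆ and 1 was lower, with a median of 2.33, and of the 117 lower at log 115 were called higher at 24 hr and 115 had a called difference. *RPL8A* had 17.7, 12.4 and 8.06 CPM in WT and 82.7, 96.5 and 115 CPM in *snf1*∆ at 24 hr, and the difference of effects was 3.54 ± 0.244. The phosphate list also lost its direction, with a median of 0.15 at 24 hr. *PHO84* was higher in *snf1*∆ at 24 hr by 1.05, with 31.6, 27.5 and 24.4 CPM in WT and 65.5, 63.6 and 47.3 CPM in *snf1*∆, and the difference was 3.12 ± 0.184 (adjusted p = 1.14e-10). All 6 Msn2 and Msn4 targets called higher at log had a called difference, and 5 of them were called lower at 24 hr. Of all 1052 genes called at log, 484 were called in the opposite direction at 24 hr and 810 had a called difference. *SPI1* changed from 1.25 at log to -3.55 at 24 hr.

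Most amino acid and lipid genes called at log were called in the same direction at 24 hr. Of the 30 Gcn4 genes called higher at log, 29 were called higher at 24 hr and none was called lower, and 21 had a called difference. Of all 1052 genes called at log, 400 were called in the same direction at 24 hr and 810 had a called difference. A difference was called for 68.6% of all genes tested. The log values that picked these genes also enter the difference. Over all 35 members 31 were higher and 2 were lower at 24 hr, with a median of 1.60. *ARG1* changed by 2.46 at 24 hr against 1.74 at log. All 8 lipid genes lower at log were also lower at 24 hr, with log2 fold changes of -2.72 for *INO1* and -2.77 for *ITR1*, and 7 of the 8 had a called difference. Over all 14 members 11 were lower and 2 were higher at 24 hr. The sulfur list was divided. Of 16 genes called at log, 8 were called in the same direction at 24 hr and 5 in the opposite one, and *SUL2* went from 1.15 at log to -1.22 at 24 hr (difference -2.37 ± 0.155). *YOR387C* and *VEL1* were the furthest raised genes at log and were raised further at 24 hr, by 5.95 and 6.16.

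**Figure D4:**
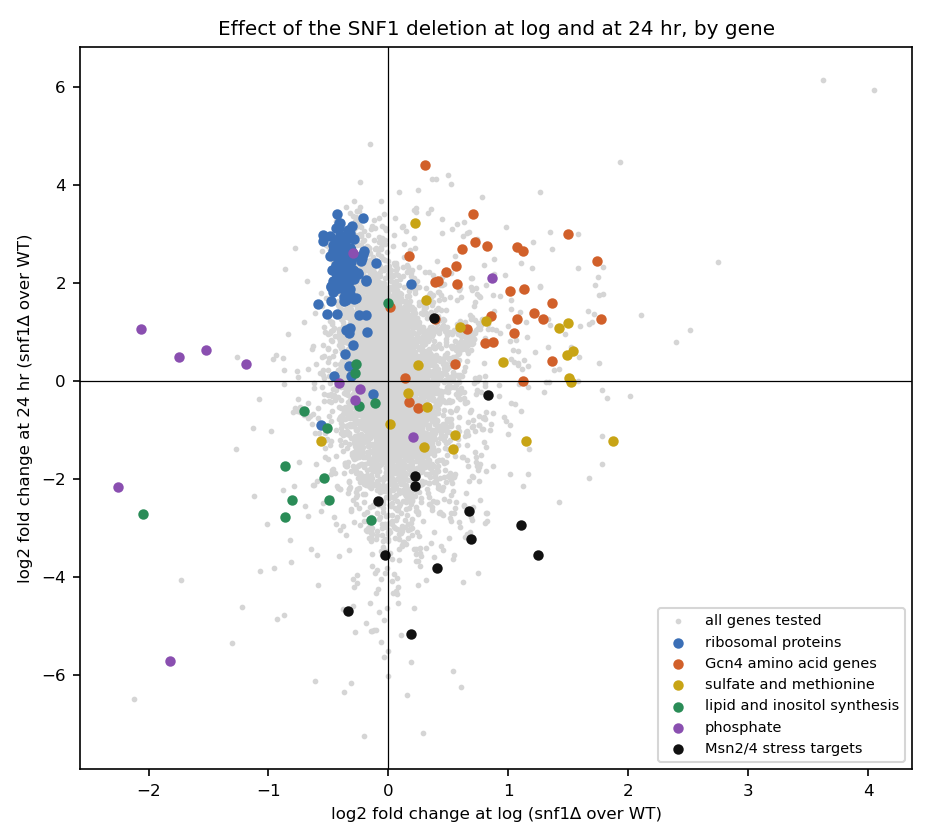
log2 fold change of *snf1*∆ over WT at log (horizontal) and at 24 hr (vertical) for each gene tested at both times, without *SNF1*, with 6 lists coloured. Ribosomal protein genes lie to the upper left of the origin, and most lipid and inositol genes to the lower left, with Gcn4 genes mostly to the upper right.

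Promoter letters for the glucose and stress repressors and activators were counted over the same 250 bases. The Mig1 site was searched on both strands as CCCC with A or C before it and AC, AG, GC or GG after it. It was present before 4 of 14 (28.6%) of the sucrose and maltose list, 3 of 21 (14.3%) of the hexose list and 276 of 5832 (4.73%) of all genes. Among genes called at least 2-fold lower it was 2 of 17 (11.8%), and among genes called at least 2-fold higher 1 of 89 (1.12%). AGGGG, the core that Msn2 and Msn4 bind, was present before 9 of 13 (69.2%) of the stress list, 114 of 588 (19.4%) of all genes called higher and 1100 of 5832 (18.9%) of all genes. The 2 searches can overlap by a run of C, and each was counted as it stood.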

How the data were processed

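Poly(A) RNA of log phase cultures was sequenced as 75-bp single reads, and the submitters' processing notes name Bowtie2, bedtools, edgeR and sacCer3. The deposited table holds the authors' raw read counts per ORF; alignment filters and the strand setting of the counting are not given in the sources used here. Columns were matched to samples by strain number, time and replicate. Counts were tested in edgeR 4.0.16 (R 4.3.3; filterByExpr, TMM, quasi-likelihood, Benjamini-Hochberg) on the 6 libraries at log, and on 12 libraries with 24 hr for the difference of effects. The labels give no source for each replicate beyond its number, while the methods describe triplicate cultures.

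Same-numbered libraries of the 2 strains deviated from their strain means with correlations of 0.434, 0.585 and 0.190, so the replicate number was also used as a block. On simulated data with 200 genes changed by a log2 change of 1, 97.5% were recovered with 13 false calls in the comparison at log, and 85.0% with 8 false calls for the difference of effects. In the simulation all other genes had the same mean in every group and libraries varied independently. It therefore cannot show errors from scaling when many genes change, or from deviations shared by same-numbered libraries. Genes were named by the rule given with them, in 15 of each direction, or as members of pathway lists, and 1 gene that rose is not reported here. The comparison, its members and the lists were chosen with earlier results of these data known. Alternatives were other scalings, filters and tests, other sets of libraries, the block, an adjusted p under 0.01 and each library left out. Gene positions and the 250 bases before 5832 start codons came from RefSeq R64, and 6008 of 6692 ORFs matched it by locus name.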

Additional observations from a re-analysis of the deposited data

Results flagged for a closer look

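For 23 of the 29 genes named for their change at log, and for all 15 of a further set picked after their values were seen, the effect of the deletion at 24 hr differed from that at log by edgeR's quasi-likelihood test of the interaction (adjusted p under 0.05). With 68.6% of all genes called in that test, such a difference is common. Values are log2 differences, the effect at 24 hr minus that at log, so that a positive value stands for a higher *snf1*∆ to WT ratio at 24 hr.

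Among genes of carbon use the differences were all negative but one, at -5.61 for *SUC2*, -4.62 for *CAT8*, -3.93 for *MAL31*, -3.40 for *ADR1*, -2.43 for *HXT4*, -2.81 for *HXT7*, -1.35 for *MIG2* and -4.04 for *MPC3*, with 0.72 for *HXT2*. Phosphate and metal genes moved the other way. *PHO84* had 3.12, *PHO12* 2.24, *PHO11* 2.14 and *PHO5* 1.52, while *FET3* had 1.75, *FTR1* 3.14, *ADH4* 2.54 and *ZPS1* 2.60. *RPL8A* had 3.54.

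*ARG1* had 0.72, *PCL5* had -2.17, and *MET5* had -1.45, *SUL2* -2.37 and *STR3* -3.09. In lipid synthesis *INO1* had -0.67, *ITR1* -1.91 and *OLE1* 1.59. Of the remaining genes, *YOR387C* and *VEL1* had 1.90 and 2.54. The others were negative, at -4.38 for *YKR075W-A*, -2.35 for *YKR075C*, -1.46 for *FIG1*, -1.60 for *ATG41*, -2.32 for *DUR12*, -1.95 for *RTC2*, -3.48 for *PRM7*, -2.90 for *BSC1*, -4.79 for *SPI1* and -1.52 for *BNA2*.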

How the results depend on the processing

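Against 1052 calls at log, 619 higher and 433 lower, the model over all 24 libraries gave 140 (112 and 28), an adjusted p under 0.01 gave 552 (363 and 189), and the 15 libraries at log and 24 hr gave 280 lower calls. The model over these 15 libraries kept 790 of the 1052 calls. With the replicate block, which pairs same-numbered libraries, there were 2240 calls, 1136 higher and 1104 lower. With 1 library left out the count ran from 664 to 1358 (419 to 751 higher, 245 to 607 lower). Library size alone gave 707 higher and 326 lower calls. For the difference of the snf1 effect between log and 24 hr, the 4478 calls became 3632 to 4707, within 1.5 times, under all alternatives run. List medians moved beyond their spread over libraries for the lipid list with upper-quartile scaling (-0.56), the phosphate list with at least 10 counts in every library (-0.42) or, chosen after seeing the data, with *PHO11* and *PHO12* taken once (-0.42) and the Gcn4 list with 1 library left out (0.74 to 0.82). Of 34 list medians, 20 moved under some alternative and 0 reversed. Of 85 called genes followed singly, 30 lost the call under some alternative other than an adjusted p under 0.01, 0 reversed, and 3 genes without a call gained one with the block; the block ended none of the 1052 calls. Libraries of 8695170 counts or more limit what is said of genes with a few CPM, and 3 libraries per strain limit small changes.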

Other observations

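Further gene groups, picked after their values were seen, are described beside 9.61% of all genes higher and 6.72% lower. Pheromone response genes were higher in 11 of 20 and lower in none, with a median of 0.49. *FUS1*, needed for cell fusion, had 23.1, 19.5 and 19.9 CPM in WT and 36.6, 35.2 and 37 CPM in *snf1*∆, and *AGA1*, the anchor subunit of a-agglutinin, had 164, 125 and 144 CPM and 259, 278 and 324 CPM. Genes for the use of urea, allantoin and proline and for ammonium uptake were higher in 10 of 17 and lower in none. *GAP1*, the general amino acid permease, had 44.7, 34.6 and 60.5 CPM and 107, 109 and 136 CPM, a call lost in the model over 24 libraries (adjusted p = 0.488), and *DUR3*, the urea transporter, had 31.2, 27.4 and 26.2 CPM and 65, 71.7 and 84.5 CPM.

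Core histone genes were lower in 5 of 8, with a median of -0.37, and in 3 of 8 without WT replicate 3. *HHF1*, a histone H4 gene, had 412, 529 and 499 CPM in WT and 258, 334 and 311 CPM in *snf1*∆. Purine genes split, with 6 of 20 lower and 2 higher. *ADE17*, which makes IMP, had 288, 286 and 263 CPM and 146, 153 and 158 CPM, and *IMD2*, which takes IMP towards GMP, had 431, 381 and 453 CPM and 1249, 1345 and 1209 CPM (1.59 ± 0.0861). The 14 mitochondrially encoded ORFs had a median log2 fold change of 0.56, in libraries selected for poly(A), and chromosome medians of nuclear genes ran from -0.04 to 0.10.

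The *snf1*∆ suppressor strain, which also carries the *CYC8* missense mutation, had 1 library at log, so its values have no replicate and no test. *SNF1* was at 0.367 CPM in it. Its ribosomal protein sum was 183422 CPM, within the range of WT, *MET5* at 70.4 CPM lay within the range of WT, and *ARG1* at 47.5 CPM was below all WT libraries. *PHO84* at 1293 CPM, *ADR1* at 271 CPM and *GAP1* at 981 CPM were above all 6 libraries of the other strains, and *INO1* was at 525 CPM.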
